A study of Mus musculus with 12 samples.

Results

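The periocular skin of filaggrin-deficient mice was examined for 10 genes that mark the conjunctiva and simple epithelium: the keratins *Krt4*, *Krt13*, *Krt7*, *Krt8*, *Krt18* and *Krt19*, the mucins *Muc4*, *Muc16* and *Muc5ac*, and the transcription factor *Pax6*. They were taken by symbol from a count table of 21247 genes, and all 10 were present and passed the minimum of 10 counts summed over the libraries. RNA-seq counts of 4 libraries labelled ft/ft were compared with those of 4 libraries labelled ft/ftMyD88-/-. Both groups were 6 weeks old, on a BALB/c background, labelled female, kept specific pathogen-free, and homozygous for ft, a point mutation that arose spontaneously and abolishes filaggrin function, separated from the matted mutation of the original flaky tail strain. The ft/ftMyD88-/- mice in addition lacked MyD88, the adaptor of toll-like and IL-1 family receptors, and the labels restrict this to no cell type. The WT libraries were not analysed here. With 4 mice in each group, each library stands for 1 mouse.

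At the edge of the eyelid, keratinized epidermis gives way to the conjunctiva, a moist, nonkeratinizing epithelium that lines the inner lid and covers the white of the eye. Its cells contain keratins 4 and 13, as other mucosal linings do, beside the keratins 7, 8, 18 and 19 of simple (single-layered and glandular) epithelium, and its goblet cells secrete the gel-forming mucin of *Muc5ac* into the tear film. *Muc4* and *Muc16* encode mucins anchored in the membrane of the surface cells, and *Pax6* encodes the paired-box factor that directs eye development and stays on in the ocular surface epithelium. Keratins 8, 18 and 19 also occur in Merkel cells, sweat and sebaceous ducts and parts of the hair follicle, so these transcripts do not mark the conjunctiva alone in a skin biopsy.

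Total counts ranged from 18941705 to 29255129 per ft/ft library and from 15802957 to 27037997 per ft/ftMyD88-/- library. The values below are CPM, the counts scaled to a common library size by edgeR's TMM method, on which 3 counts, the most that a library with a count of 0 allows, were worth 0.102 to 0.183. The sex-linked genes went against the labels. The RNA *Xist*, which coats the silenced X chromosome of female cells, was seen with 1 count among the 4 ft/ft libraries together, but at 34.6 to 66.8 CPM in every ft/ftMyD88-/- library. The Y-linked *Ddx3y* ranged from 54.2 to 73.2 CPM in ft/ft and reached at most 0.482 CPM in ft/ftMyD88-/-, and *Eif2s3y*, *Uty* and *Kdm5d* were likewise high in the former (means of 51.3, 19.1 and 16.4 CPM) and near 0 in the latter. Genotype and sex therefore cannot be told apart in any comparison below. *Myd88* itself was higher, not lower, under the ft/ftMyD88-/- label, at 41.2 ± 7.29 CPM (SD, n = 4) against 30.7 ± 4.74 (log2 fold change 0.42, adjusted p = 0.0484, edgeR), and a count per gene does not show which exons it covers. *Flg* averaged 103 ± 69.8 CPM in ft/ft and 242 ± 39.5 in ft/ftMyD88-/- (adjusted p = 0.12, edgeR). All directions below rest on the labels.

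Of the 10 genes, 3 were lower in the libraries labelled ft/ftMyD88-/- at an adjusted p under 0.05 in edgeR's quasi-likelihood test (*Pax6*, *Krt8* and *Krt13*), none was higher and 7 did not pass. Over all 20454 genes tested, 23.3% passed the same test, 10.9% higher and 12.3% lower (29.4% of the 14519 genes at or above the mean level of *Muc16*), so the share among the 10 genes was near the background. At an unadjusted p under 0.05 there were 4 lower and 1 higher of the 10, beside 7551 of the 20454 genes in either direction. DESeq2 called 4 lower and 0 higher, beside 2763 lower and 2861 higher over all genes. Limma voom called 3 lower and 1 higher (*Muc16*), beside 2519 lower and 2182 higher over all genes. In no gene of the 10 were the 2 groups of libraries fully apart, although 26.7% of all tested genes had groups that did not overlap (12.5% higher, 14.2% lower). The log2 fold change (ft/ftMyD88-/- minus ft/ft) was below 0 in 7 and above 0 in 3 of the 10 genes, with a median of -0.69 beside 0.013 over all tested genes. In bulk tissue, fewer cells of a type and less RNA per cell cannot be told apart.

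**Figure D1:**
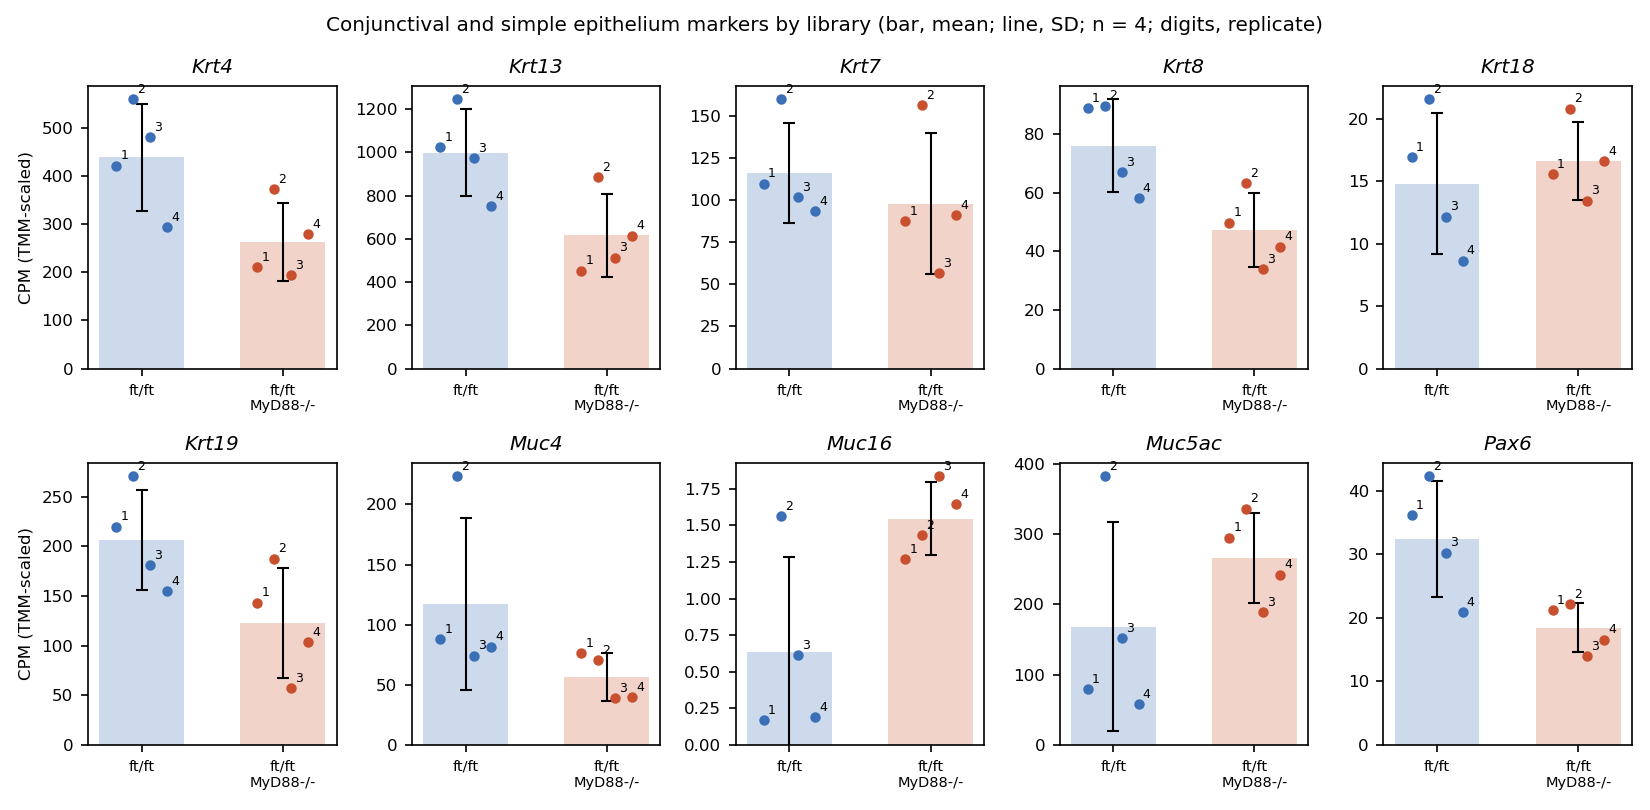
CPM (TMM-scaled, linear axes from 0) of the 10 genes in each of the 4 libraries labelled ft/ft and the 4 labelled ft/ftMyD88-/-. Each point is 1 library with its replicate number, the pale bar reaches the group mean and the capped vertical line spans 1 SD to either side of it. *Krt13* ranged from 752 to 1244 CPM in ft/ft and from 452 to 885 CPM in ft/ftMyD88-/-, and replicate 2 was the highest ft/ft library for every gene.

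*Krt13* and *Krt4*, the partner keratins of moist stratified epithelium, kept a near-constant ratio to each other, and *Krt13* but not *Krt4* passed the test. *Krt13* stood at 1023, 1244, 974 and 752 CPM in ft/ft replicates 1 to 4 and at 452, 885, 513 and 614 CPM in ft/ftMyD88-/- replicates 1 to 4. A single library, ft/ftMyD88-/- replicate 2, reached into the range of ft/ft, where it stood above the lowest library. The means were 998 ± 202 and 616 ± 191 CPM (SD, n = 4), a log2 fold change of -0.70 (SE 0.214, adjusted p = 0.0408, edgeR), or 1.62-fold higher in ft/ft. *Krt4* stood at 421, 559, 479.9 and 294 CPM in ft/ft and at 209.9, 372, 193 and 278 CPM in ft/ftMyD88-/-. Here too ft/ftMyD88-/- replicate 2 was the one library that overlapped the ft/ft range. For *Krt4* the log2 fold change was -0.74 (SE 0.247, adjusted p = 0.0618, edgeR), and it passed in 7 of 18 alternative fits. It passed without ft/ft replicate 4 (adjusted p = 0.0215), ft/ftMyD88-/- replicate 2 (0.0138) or both replicates 2 (0.0246). It also passed with DESeq2 (0.00902), filterByExpr (0.0498), scaling to *Krt5* and *Krt14* (0.0306) and the replicate number as a block (0.024). Over the alternatives the adjusted p of *Krt4* ranged from 0.00902 to 0.149. The call of *Krt13* was lost when ft/ft replicate 1, 2 or 3 or ft/ftMyD88-/- replicate 1, 3 or 4 was left out, and with library size as the only scaling (-0.52, adjusted p = 0.0955). Its adjusted p ranged from 0.00418 to 0.117 over the alternatives. No difference in the ratio of the pair, chosen after the counts were seen, was detected, with 2.03 to 2.56 *Krt13* counts beside each *Krt4* count in ft/ft and 2.15 to 2.65 in ft/ftMyD88-/- (two-sided exact permutation test, p = 0.8).

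*Pax6* had the lowest adjusted p of the 10 genes. It stood at 36.2, 42.3, 30.3 and 20.9 CPM in ft/ft and at 21.2, 22.1, 13.9 and 16.6 CPM in ft/ftMyD88-/-. Replicates 1 to 3 of ft/ft lay above every ft/ftMyD88-/- library, and ft/ft replicate 4 lay inside their range. The means were 32.4 ± 9.12 and 18.5 ± 3.86 CPM, a log2 fold change of -0.81 (SE 0.218, adjusted p = 0.0235, edgeR), or 1.76-fold higher in ft/ft. It was the only one of the 3 lower genes that stayed past the threshold with library size as the only scaling, and its call was lost without ft/ft replicate 1 (adjusted p = 0.0631), ft/ft replicate 2 (0.0508) or ft/ftMyD88-/- replicate 4 (0.0819). Over all alternatives its adjusted p lay between 0.00209 and 0.0819. The antisense gene *Pax6os1* had at most 16 counts in a library. Of the 50-base windows of *Pax6* transcripts, 0.443% also occur in transcripts of other genes, and *Pax6os1* was not among the main ones. The library kit named by the study does not mark strand, so reads from any sequence that *Pax6* and *Pax6os1* share cannot be told apart.

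The keratins of simple epithelium did not move as a block. *Krt8*, the type II keratin that pairs with keratin 18, stood at 89.1, 89.9, 67.2 and 58.2 CPM in ft/ft and at 49.9, 63.5, 33.9 and 41.7 CPM in ft/ftMyD88-/-. Only ft/ftMyD88-/- replicate 2 reached above the lowest ft/ft library. This gave a log2 fold change of -0.69 (SE 0.206, adjusted p = 0.0391, edgeR), with means of 76.1 ± 15.9 and 47.2 ± 12.6 CPM. As with *Krt13*, the call held in 2 of the 8 fits that each left out 1 library (without ft/ft replicate 4 or ft/ftMyD88-/- replicate 2), and it was lost without any other library, with library size as the only scaling (-0.51, adjusted p = 0.0826) and under scaling to *Krt5* and *Krt14* (-0.41, adjusted p = 0.0641, with 0.00251 to 0.116 over the alternatives). Its type I partner *Krt18* stood at 16.9, 21.5, 12.2 and 8.63 CPM in ft/ft and at 15.6, 20.8, 13.4 and 16.6 CPM in ft/ftMyD88-/-. These ranges lay almost on top of each other, and the log2 fold change was 0.16 (SE 0.258, adjusted p = 0.696, edgeR).

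Accordingly the ratio within the *Krt8* and *Krt18* pair differed between the groups, with 5.27, 4.17, 5.53 and 6.75 *Krt8* counts per *Krt18* count in ft/ft and 3.21, 3.05, 2.52 and 2.52 in ft/ftMyD88-/-. Every ft/ft library was above every ft/ftMyD88-/- library. This ratio was chosen after the counts had been seen and is given without a test, and 6.41% of all genes had groups that did not overlap when counted per *Krt18* count (3.96% lower). Of the *Krt8* transcript's 50-base windows, 29.7% also occur in the pseudogene *Krt8-ps* or in *Gm36026*, so reads there cannot be placed, and *Krt8-ps* had at most 6 counts in a library.

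*Krt19*, a type I keratin of ducts and simple epithelium without the usual tail domain, stood at 219.7, 271, 181 and 155 CPM in ft/ft and at 143, 188, 57.4 and 104 CPM in ft/ftMyD88-/-. One library, ft/ftMyD88-/- replicate 2, overlapped the ft/ft range, and replicate 3 of the same group was by far the lowest. Its log2 fold change was -0.75 (SE 0.368, adjusted p = 0.191, edgeR). *Krt7*, a type II keratin of glandular and ductal cells, stood at 109.9, 159.9, 102 and 93.6 CPM in ft/ft and at 87.5, 157, 56.9 and 91.2 CPM in ft/ftMyD88-/-. Replicate 2 stood out as the highest library in both groups. For *Krt7* the log2 fold change was -0.25 (SE 0.319, adjusted p = 0.63, edgeR), and its direction turned to 0.014 when libraries were scaled to the summed counts of *Krt5* and *Krt14*.

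The mucins went different ways, and none passed the test over the 8 libraries. *Muc4*, a long transmembrane mucin, stood at 88.3, 224, 74.4 and 81.9 CPM in ft/ft and at 76.4, 70.8, 38.8 and 39.5 CPM in ft/ftMyD88-/-. The mean of ft/ft was carried by replicate 2, and the other 3 ft/ft libraries lay between 74.4 and 88.3 CPM, a range that took in the highest ft/ftMyD88-/- library. Its log2 fold change was -1.05 (SE 0.459, adjusted p = 0.15, edgeR), and without ft/ft replicate 2 it was -0.53. Of its 50-base windows 4.31% are shared with *Muc20*.

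*Muc16*, the very large membrane mucin known as CA125, was close to the limit of what these libraries can show, with 4, 43, 11 and 5 counts in ft/ft and 29, 39, 54 and 27 counts in ft/ftMyD88-/-. As CPM this was 0.172, 1.56, 0.614 and 0.192 against 1.27, 1.43, 1.84 and 1.65. Outside ft/ft replicate 2, every ft/ft library was below every ft/ftMyD88-/- library. Over all 8 libraries the log2 fold change was 1.25 (SE 0.555, adjusted p = 0.13, edgeR), and it was 2.32 (adjusted p = 0.00364, with 0.00263 to 0.239 over the alternatives) without ft/ft replicate 2.

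*Muc5ac*, the gel-forming mucin of goblet cells, stood at 79.5, 382, 152 and 57.6 CPM in ft/ft and at 295, 336, 188 and 242 CPM in ft/ftMyD88-/-. As with *Muc16*, the ft/ft libraries other than replicate 2 were lower than the whole other group, and for *Muc5ac* ft/ft replicate 2 was also the highest of all 8 libraries. Its log2 fold change was 0.66 (SE 0.627, adjusted p = 0.503, edgeR) with all libraries and 1.46 (adjusted p = 0.0428, with 0.0428 to 0.704 over the alternatives) without ft/ft replicate 2. Without that library *Muc16* and *Muc5ac* were the 2 genes called of the 10, both higher, beside 21.2% of all genes, while 0 were called lower by edgeR (4 at an unadjusted p under 0.05). These fits show how far 1 library set the value of both mucins, and they do not show which value is right.

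**Figure D2:**
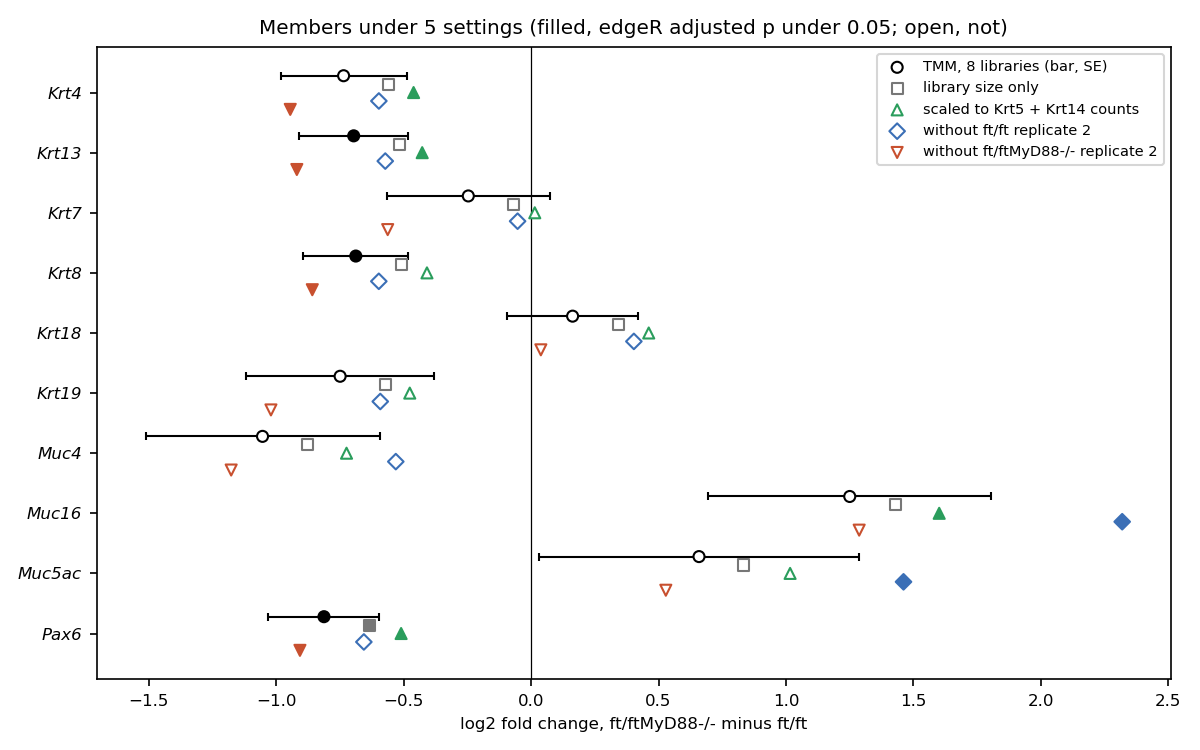
Log2 fold change (x axis, ft/ftMyD88-/- minus ft/ft) of the 10 genes (rows) under 5 settings, with filled symbols at an edgeR adjusted p under 0.05 and bars of 1 SE on the 8-library TMM values. *Muc16* and *Muc5ac* moved to 2.32 and 1.46 without ft/ft replicate 2, while *Krt4*, *Krt13*, *Krt8*, *Krt19*, *Muc4* and *Pax6* stayed below 0 in all 5 settings.

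Levels can be set beside each other only per transcript length, here as CPM per kilobase of the longest principal GENCODE transcript. Counts were per gene, and the length of all exons together can differ. It was 7049 against 4094 bases for *Krt7* and 11694 against 2869 bases for *Pax6*, so their places in the order can depend on the length used. In ft/ft the order of mean levels was *Krt13* (604 CPM per kilobase), *Krt4* (206), *Krt19* (131), *Krt8* (38.9), *Krt7* (28.4), *Muc5ac* (20.4), *Pax6* (11.3), *Muc4* (10.4), *Krt18* (10.3) and *Muc16* (0.0250). The libraries separated *Krt13* from *Krt4*, *Krt19* from *Krt8*, and *Krt18* from *Muc16*, and other neighbours in that order had overlapping ranges. In ft/ftMyD88-/- the same 3 keratins came first, with *Krt13* at 373, *Krt4* at 123 and *Krt19* at 78.0 CPM per kilobase. *Muc5ac* followed them there at 32.1, with a range that overlapped those of both its neighbours, and *Krt18* (11.6) stood above *Pax6* (6.43) without overlap. The mucosal keratins were thus the most abundant of the 10 transcripts in both groups.

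**Figure D3:**
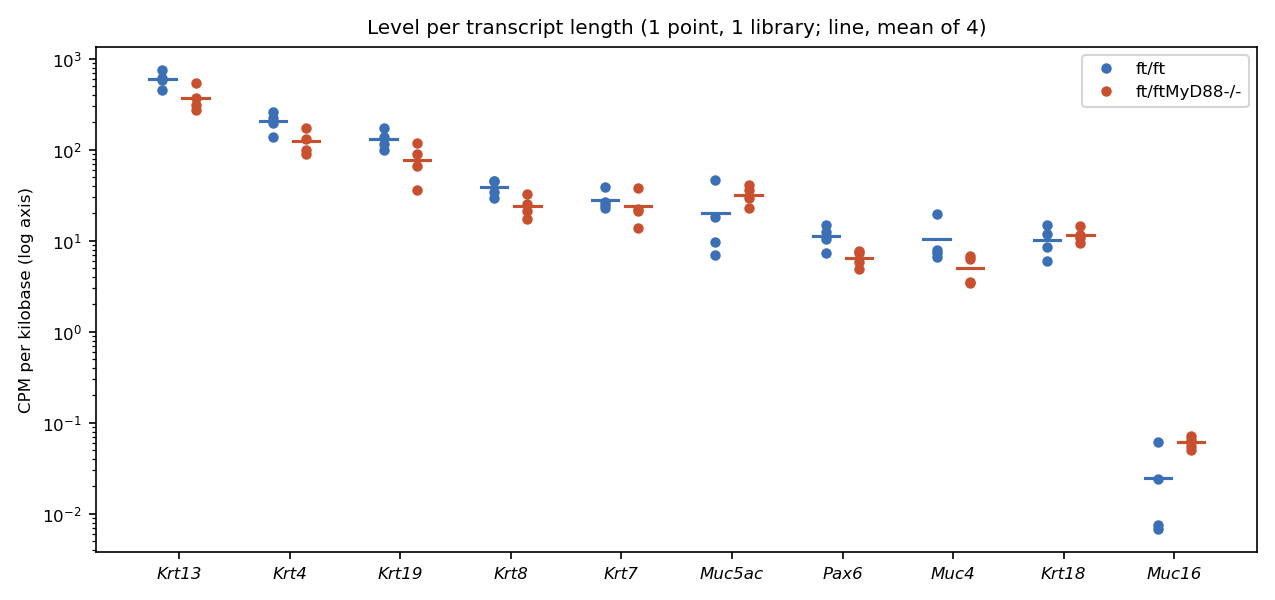
Level per transcript length (CPM per kilobase, log axis) of the 10 genes in each library of the 2 groups. *Krt13* was the highest in both groups (means of 604 and 373), *Muc16* the lowest (0.0250 and 0.0608), and most neighbours overlapped.

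Upstream sequence was read from RefSeq (GRCm38.p6), whose promoter table matched 7 of the 10 genes, all but *Krt4*, *Krt19* and *Muc5ac*. The 250 bases before the start of the 3 lower genes and of *Krt18*, the partner of *Krt8* that did not move with it, are printed 5′ to 3′ on the strand of the gene. Capitals mark matches on either strand to the letters of a CACCC element (CCACCC), an AP-1 site (TGANTCA) or an AP-2 site (GCCNNNGGC), and a TATA box (TATAAA) was searched as well. Of 32851 promoters of the same length, 28.1% held CCACCC, 6.75% TGANTCA, 13.7% GCCNNNGGC and 12.4% TATAAA. *Krt13* (chr11:100121567-100121816, minus strand, the first of 2 starts in the table) held 4 matches to CCACCC and 1 to TGANTCA, and its second start, not printed, held 0 and 2. *Krt8* (chr15:102004343-102004592, minus strand) held 2 to CCACCC. *Krt18* (chr15:102027966-102028215, plus strand) and *Pax6* (chr2:105668646-105668895, plus strand, the first of 2 starts in the table) held 1 match to GCCNNNGGC each. The second *Pax6* start, not printed, held 0 matches to each of the 4 motifs. A match is a description of letters, not a binding site, and none of the 4 motifs was found in the windows of all 3 lower genes.
Krt13: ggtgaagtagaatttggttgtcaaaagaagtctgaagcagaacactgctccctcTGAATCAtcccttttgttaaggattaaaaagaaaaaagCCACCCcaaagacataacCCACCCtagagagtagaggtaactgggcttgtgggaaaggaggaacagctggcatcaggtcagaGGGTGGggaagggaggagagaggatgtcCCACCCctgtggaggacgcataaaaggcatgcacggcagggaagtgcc
Krt8: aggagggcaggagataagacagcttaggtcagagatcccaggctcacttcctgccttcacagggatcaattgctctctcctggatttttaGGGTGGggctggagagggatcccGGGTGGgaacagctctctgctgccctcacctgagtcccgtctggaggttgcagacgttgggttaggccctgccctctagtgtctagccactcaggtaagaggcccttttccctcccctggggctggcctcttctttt
Krt18: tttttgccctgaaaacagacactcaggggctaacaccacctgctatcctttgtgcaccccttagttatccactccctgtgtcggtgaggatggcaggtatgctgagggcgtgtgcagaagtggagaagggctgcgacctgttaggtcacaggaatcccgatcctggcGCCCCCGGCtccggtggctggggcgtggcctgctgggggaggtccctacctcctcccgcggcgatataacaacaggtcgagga
Pax6: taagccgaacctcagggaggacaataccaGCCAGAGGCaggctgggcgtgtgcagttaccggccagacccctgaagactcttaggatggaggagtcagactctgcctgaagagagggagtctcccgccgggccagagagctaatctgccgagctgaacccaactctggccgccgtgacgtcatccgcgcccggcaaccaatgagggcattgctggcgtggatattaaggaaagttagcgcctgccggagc

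*Krt8* and *Krt18* lie close together in the type II keratin cluster of chromosome 15, the gene bodies lying at chr15:101996711-102004342 and chr15:102028216-102032026, with *Krt4* (chr15:101918535-101924735) and *Krt7* (chr15:101412403-101427806) in the same cluster. *Krt13* (chr11:100117327-100121566) and *Krt19* (chr11:100140810-100145926) lie in the type I cluster of chromosome 11. The other 4 genes are on different chromosomes, with *Muc4* at chr16:32735886-32782391, *Muc16* at chr9:18495445-18674821, *Muc5ac* at chr7:141788958-141819227 and *Pax6* at chr2:105668896-105698410. On chromosome 15 the log2 fold changes were -0.69 for *Krt8*, -0.74 for *Krt4*, -0.25 for *Krt7* and 0.16 for *Krt18*. On chromosome 11 they were -0.70 for *Krt13* and -0.75 for *Krt19*. Of these keratins only *Krt8* and *Krt13* passed the test.

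The 10 genes tended to vary together among the libraries of a group. Replicate 2 was the highest ft/ft library for 10 of the 10 genes, and replicate 4 was the lowest for 8. Among ft/ftMyD88-/- libraries replicate 2 was the highest for 8 genes and replicate 3 the lowest for 8, with *Muc16* going the other way in replicate 3, where it was highest. How many of all tested genes had their highest or lowest value in these libraries was not computed. The pattern is therefore not shown to be particular to the 10 genes. Summed, the 10 genes made up 0.145% to 0.282% of all counts in ft/ft and 0.121% to 0.227% in ft/ftMyD88-/- (two-sided exact permutation test, p = 0.314). Of all keratin counts, the 6 keratins took 3.58% to 5.17% in ft/ft and 2.25% to 5.28% in ft/ftMyD88-/- (two-sided exact permutation test, p = 0.257). On both measures the ranges of the groups overlapped. With replicate 2 left out of both groups, an alternative chosen after seeing the data, 7 of the 10 genes had groups that did not overlap, beside 37.8% of all genes with 3 against 3 libraries. In that fit 5 of the 10 were called, beside 17.6% of all genes, with *Muc16* higher (2.36, adjusted p = 0.00783, edgeR) and *Krt4* (-0.81, adjusted p = 0.0246), *Krt13*, *Krt8* and *Pax6* lower.

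**Figure D4:**
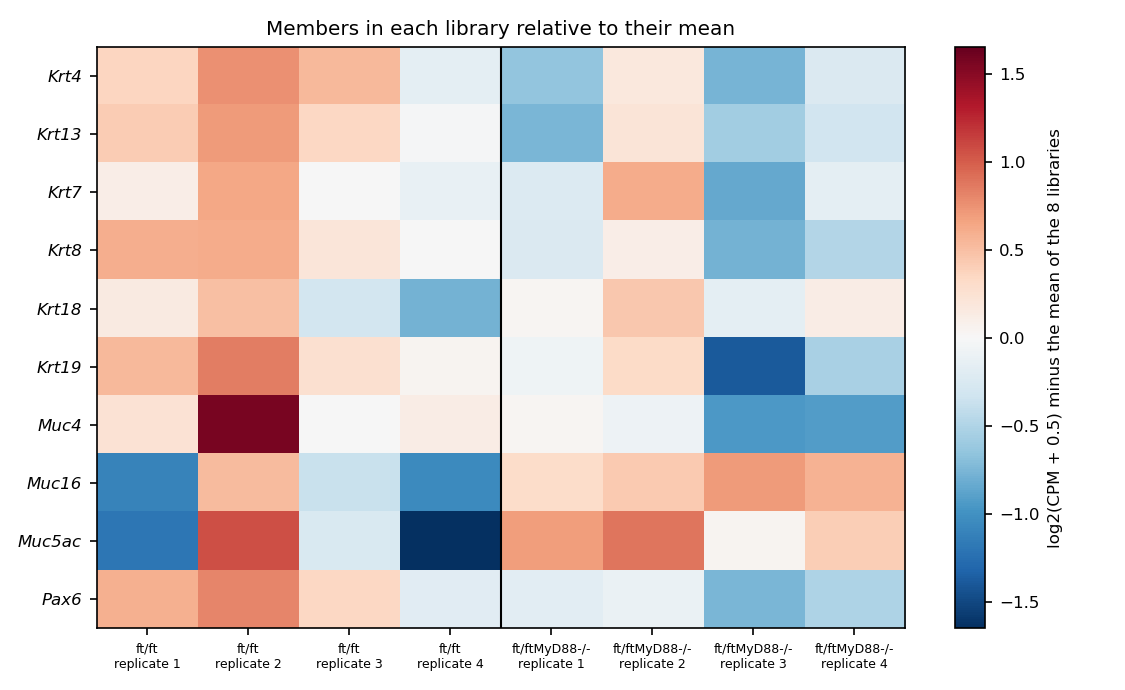
Deviation of each gene (rows) in each library (columns) from its mean over the 8 libraries, on the log2 scale of CPM plus 0.5. *Muc4* reached 1.57 in ft/ft replicate 2, where all 10 genes were above 0, and *Krt19* stood at -1.39 in ft/ftMyD88-/- replicate 3, where *Muc16* stood at 0.70.

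Ratios between the genes within a library do not depend on how the library is scaled. Of the 45 pairs, 20 had ratios that did not overlap between the groups. They were concentrated in the pairs of *Krt18*, *Muc16* or *Muc5ac* with one of the other 7 genes, where 18 of 21 did not overlap, against 1 of 21 among the other 7 and 1 of 3 among these 3. The division into 3 and 7 genes was made from the measured direction. Pairing a gene measured as higher with one measured as lower in itself favours ratios that do not overlap. How many pairs among all tested genes had ratios that did not overlap was not computed. These counts are therefore a description with no test, and the concentration is not shown to be particular to these genes. For *Muc5ac* per *Muc4* count, the gel-forming against the membrane mucin, the values were 0.9, 1.71, 2.05 and 0.704 in ft/ft and 3.85, 4.74, 4.86 and 6.13 in ft/ftMyD88-/-. The groups were far apart, and 30.1% of all genes had groups that did not overlap when counted per *Muc4* count (29.9% higher in ft/ftMyD88-/-). Per *Krt13* count, *Muc5ac* stood at 0.0777, 0.307, 0.157 and 0.0767 in ft/ft and at 0.651, 0.380, 0.368 and 0.394 in ft/ftMyD88-/-, again without overlap, beside 21.9% of all genes (21.4% higher). Replicate 2 of ft/ft, the highest library for *Muc5ac* as CPM, was thus below every ft/ftMyD88-/- library once set against *Muc4* or *Krt13*.

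Other genes of the conjunctiva and its goblet cells were also divided. Of 13 tested, 3 were called higher and 4 lower in ft/ftMyD88-/-, and the median log2 fold change was 0.014, beside 0.013 over all genes. The largest increase was in *Foxa3*, a forkhead factor of goblet cells, at 0.0857, 0.546, 0.112 and 0.345 CPM in ft/ft and 1.10, 1.10, 0.987 and 1.46 CPM in ft/ftMyD88-/- (log2 fold change 1.98, SE 0.438, adjusted p = 0.00703, edgeR). All ft/ftMyD88-/- libraries were above all ft/ft libraries, at low levels. *Fcgbp*, which encodes an IgG-binding protein of mucus, was the most abundant of the list and fell most, from 235, 285, 273 and 239.5 CPM to 65.6, 75.7, 90.2 and 52.4 CPM (log2 fold change -1.86, SE 0.149, adjusted p = 1.99e-05, edgeR). The other called genes, named after their values were seen, were *Agr2* (1.78), a protein folding factor of mucous cells, and *Spdef* (1.44), an ETS factor of goblet cell differentiation, which were higher, and the mucins *Muc20* (-0.90) and *Muc15* (-0.49) and the secretory factor *Creb3l1* (-0.44), which were lower. *Tff1* and *Tff3*, also on the list, were absent from the count table under these symbols and so were not tested. The summed level of the list was 385 to 504 CPM in ft/ft and 197 to 253 CPM in ft/ftMyD88-/-. *Fcgbp* alone averaged 258 CPM in ft/ft and 70.9 CPM in ft/ftMyD88-/-, so the sum mainly follows this gene and does not show a fall of the list.

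Enzymes that build the O-linked sugars of mucins mostly did not pass. Among the 14 genes of mucin glycosylation and the glycocalyx, 2 were higher, 1 was lower and the median was 0.09. *Galnt6*, which starts O-linked chains, stood at 6.90, 8.76, 5.75 and 6.36 CPM in ft/ft and at 31.5, 27.8, 20.0 and 37.4 CPM in ft/ftMyD88-/-, with no overlap (log2 fold change 2.06, SE 0.193, adjusted p = 6.90e-05, edgeR). *Gcnt1*, named after its value was seen, branches such chains and rose by a log2 fold change of 1.77 (adjusted p = 0.000227, edgeR), whereas *Galnt4* fell by 0.31 on the log2 scale (adjusted p = 0.0447, edgeR). *Lgals3*, the galectin that crosslinks surface mucins and the most abundant gene of the list, had a log2 fold change of -0.20 (adjusted p = 0.143, edgeR), which turned to 0.071 under scaling to *Krt5* and *Krt14*.

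General genes of simple and glandular epithelium were lower where they passed, but not all went down. Of 13 tested, 6 were called by edgeR, each of them lower, beside 12.3% of all genes called lower. The median was -0.36. Of the 13, 4 had a log2 fold change above 0, up to 1.18 in *Wfdc2* (adjusted p = 0.0847, edgeR). *Elf3*, an epithelial ETS factor, fell most, by 0.93 on the log2 scale (SE 0.235, adjusted p = 0.0221, edgeR), with 66.3 to 112 CPM in ft/ft and 27.6 to 56.6 CPM in ft/ftMyD88-/-. The groups of *Elf3* did not overlap. The general epithelial adhesion gene *Epcam*, named after its value was seen, had a log2 fold change of 0.02 (adjusted p = 0.898, edgeR).

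Among developmental factors of the eye and its surface, 8 of the 14 listed were in the table and tested, of which 2 were called, both lower, with a median of -0.24. *Rax*, an eye-field factor, fell by 2.61 on the log2 scale at no more than 1.46 CPM (adjusted p = 0.0128, edgeR), and its groups overlapped at ft/ft replicate 2. *Klf4*, the most abundant of the list, had a log2 fold change of -0.05 (adjusted p = 0.748, edgeR), which turned to 0.13 with library size as the only scaling and to 0.24 under scaling to *Krt5* and *Krt14*. Of 7 genes of the cornea, 2 were lower, the most abundant being *Aldh3a1*, the corneal crystallin enzyme, at 607, 714, 618 and 454 CPM in ft/ft and 177, 259.8, 266 and 227 CPM in ft/ftMyD88-/- (log2 fold change -1.36, SE 0.156, adjusted p = 0.000191, edgeR). *Krt12*, the defining keratin of the cornea, was near the floor at no more than 0.919 CPM in any library. The lens was nearly absent, its 3 tested genes summing to 2.63 to 4.02 CPM over all libraries.

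**Figure D5:**
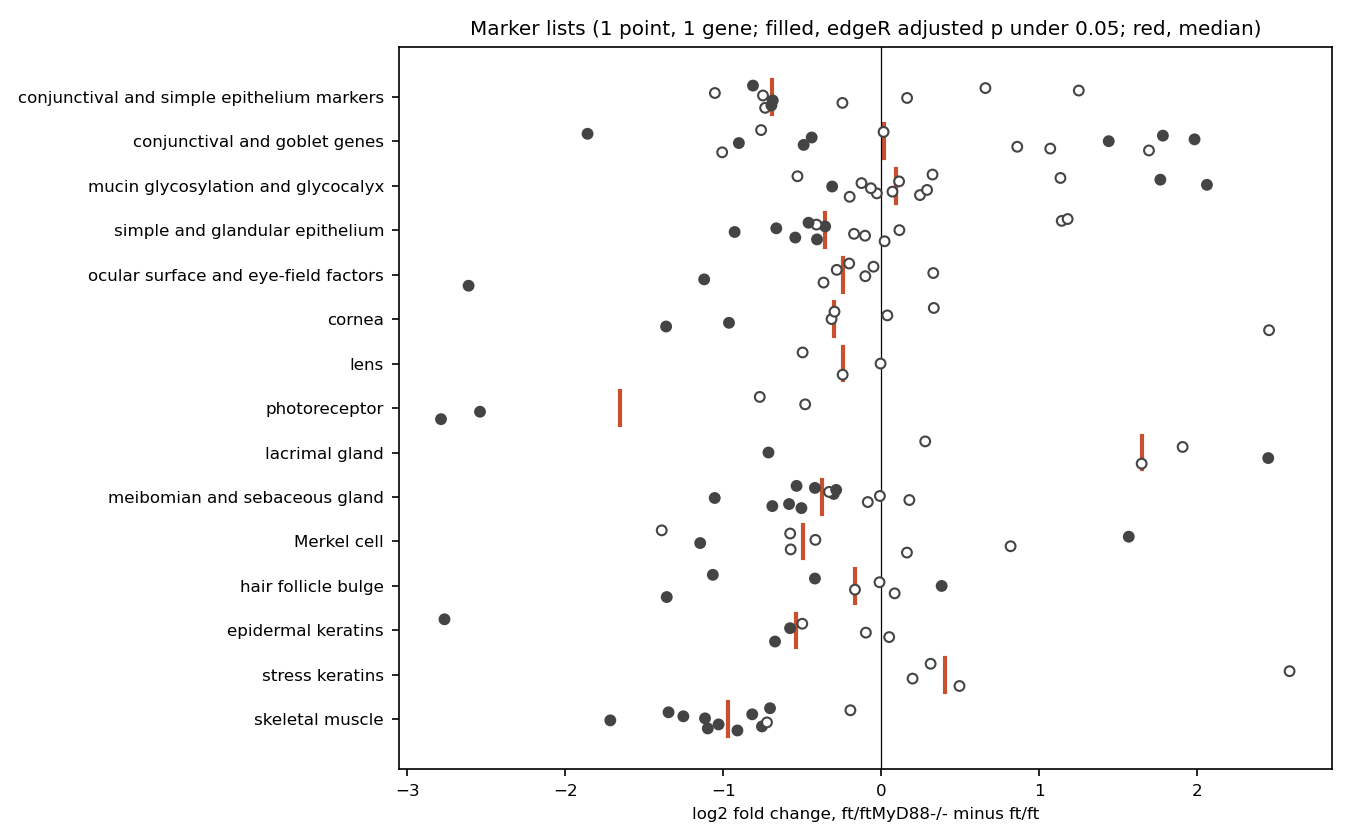
Log2 fold change (x axis, ft/ftMyD88-/- minus ft/ft) of every tested gene in each list of markers (rows), filled at an edgeR adjusted p under 0.05, with a red line at the list's median. The median of the 10 conjunctival and simple epithelium markers was -0.69, of skeletal muscle -0.97 and of all tested genes 0.013.

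Other cell types of the biopsy moved as well. Skeletal muscle genes summed to 10230 to 13880 CPM in ft/ft and 3901 to 7436 CPM in ft/ftMyD88-/-, with 10 of 12 called lower and *Myh2*, a fast myosin, falling by 1.72 on the log2 scale. With these muscle genes left out of the edgeR fit, *Krt13* (-0.70, adjusted p = 0.0415), *Krt8* (-0.69, 0.0389) and *Pax6* (-0.81, 0.0234) were still called lower. Whether a changed share of muscle tissue had a part in their lower values was not tested. Merkel cells share *Krt8*, *Krt18* and *Krt19*, and their 8 markers summed to 10.9 to 15.1 CPM in ft/ft and 9.90 to 13.7 CPM in ft/ftMyD88-/-. Of these markers 1 was higher (*Chga*, 1.57) and 1 lower (*Isl1*, -1.15), and the defining *Atoh1* and *Krt20* were at no more than 0.307 and 0.964 CPM. Meibomian and sebaceous gland genes summed to 9124 to 10620 CPM in ft/ft and 7165 to 9185 CPM in ft/ftMyD88-/-, with 8 of 12 lower. Their part in the result was not tested.

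The keratins and mucins outside the 10 genes give the family context. Of 6 keratins of the epidermis 3 were lower, led by *Krt77* (-2.77, adjusted p = 0.00675, edgeR), with a list median of -0.54. *Krt5*, the basal keratin, was lower (-0.67, adjusted p = 0.0014) and its partner *Krt14* had a log2 fold change of 0.05 (adjusted p = 0.839). Over all 44 other keratins tested, 2 were higher and 7 lower, with a median of 1.57, which was 0.98 without ft/ftMyD88-/- replicate 1, the highest of the 8 libraries for 24 of the 44. The hair keratin *Krt31*, named after its values were seen, stood at 15.1, 21.3, 24.5 and 43.7 CPM in ft/ft and at 423, 22.5, 38.4 and 174 CPM in ft/ftMyD88-/-, where replicates 2 and 3 were inside the ft/ft range. *Krt74*, an inner root sheath keratin, had the largest called increase at 3.54 (adjusted p = 0.0145, edgeR) but at most 1.10 CPM in a library. Of 7 other mucins 2 were called, both lower (*Muc20* and *Muc15*). *Muc5b*, the other gel-forming mucin, had values of 5.14, 22.2, 8.81 and 2.68 CPM in ft/ft and 23.8, 31.9, 10.2 and 15.9 CPM in ft/ftMyD88-/- (log2 fold change 1.07, adjusted p = 0.331, edgeR). Like *Muc5ac*, it was highest of its group in replicate 2 of ft/ft.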

How the data were processed

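Bulk RNA-seq of periocular skin was used from 4 libraries labelled ft/ft and 4 labelled ft/ftMyD88-/-. The authors deposited raw counts per gene, without normalization. Per the paper's methods, polyA-selected TruSeq libraries were read as single ends of 50 cycles, mapped to GRCm38.p6 by HISAT with tophat2, and counted with HTSeq at default settings, which discards reads that match several places. The labels instead name total RNA, a fixed-tissue protocol, GRCm38 and Cell Ranger. Versions and annotation release are not given in the sources used here. HTSeq's default counts by strand, while the named kit does not mark it.

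The 10 genes and the other marker lists were chosen with earlier results of these data known. The named genes are all 10, and from each other list the most abundant gene and the largest called increase and decrease, with *Xist*, 4 Y-linked genes, *Myd88* and *Flg* as checks of the labels, and some genes that this rule names are not reported here. The 20454 genes with 10 or more summed counts entered a two-sided quasi-likelihood test of edgeR 4.0.16 (R 4.3.3, TMM, robust glmQLFit, then glmQLFTest) without covariates, with Benjamini-Hochberg adjustment at 0.05 and a biological coefficient of variation of 0.182. The script was tested on simulated data. Alternatives were DESeq2 1.42.0, limma 3.58.1 voom, RLE, library size only, scaling to *Krt5* and *Krt14*, no muscle genes, filterByExpr, no filter, a log2 fold change of at least 1, the replicate number as a block, and each library left out. An exact permutation test with 4 against 4 libraries cannot go below 0.0286. Transcript lengths and shared 50-base windows come from GENCODE M21, coordinates and promoters from RefSeq. Floors cover counting error only, since reads without molecular identifiers are not independent molecules. No replicate pair was a duplicate, as the lowest chi-square per degree of freedom was 15.1.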

Additional observations from a re-analysis of the deposited data

Results flagged for a closer look

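Within groups of 4 libraries, 5 of 86 sets of values (a gene in a group) had 1 library whose gap to the nearest other, divided by the group's range, was above the critical value of Dixon's test. Chance alone flags about 1 in 20 such sets. *Muc4* stood at 224 CPM in ft/ft replicate 2, with the other ft/ft libraries at 74.4 to 88.3. *Ltf*, lactoferrin of the lacrimal gland, was at 112 CPM in the same library, with the others at 36.3 to 42.9. For *Lgals3* the high library was ft/ft replicate 1, with 703 CPM beside 598 to 615 in the others. *Chga*, a secretory granule protein, was at 3.66 CPM in ft/ftMyD88-/- replicate 4 and at 1.73 to 2.02 in the others, and *Krt17*, a stress keratin, at 2200 CPM in ft/ftMyD88-/- replicate 3 and at 2900 to 2960 in the others.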

How the results depend on the processing

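Of the 10 genes 3 were called, all lower. With 1 library left out, 0 to 4 were called, 0 to 4 lower and 0 to 2 higher, 0 to 5 had groups that did not overlap, beside 16.5% to 23.2% of all genes called and 30.0% to 33.4% not overlapping, and 1462 to 2260 genes were called higher. With both replicates 2 left out (chosen after seeing the data) 5 were called (17.6% of all genes), 1 of them higher, and 7 did not overlap (37.8% of all genes). Voom called 1 higher, beside 2182 higher over all genes. With library size only, 1 was called, 1 lower, and over all genes 4638 higher and 1326 lower. Scaled to *Krt5* and *Krt14*, *Krt4* was called lower in place of *Krt8*, 1 was higher and 1 did not overlap, with 4385 genes higher and 708 lower. The median of all genes was then 0.293, and 0.19 with library size only, against 0.013 with TMM, and that of the 10 genes was -0.42, -0.51 and -0.69. With a minimum of 1 on the absolute log2 fold change, 0 of the 10 were called, 0 lower, with 1272 genes in all, 752 higher and 520 lower. The causes of these moves were not tested. Replicate numbers shared by the groups do not pair the libraries (correlations of deviations -0.293, 0.0457, 0.0723 and -0.068). With the replicate number as a block, 6 of the 10 were called, 6 lower, beside 4039 of all genes, 1895 higher and 2144 lower. Of the ft/ft libraries, 1 correlated best with its own number. 

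Values near 0 turned direction. *Krt7* went to 0.014 under *Krt5* and *Krt14* scaling, *Krt18* to -0.026 without ft/ft replicate 4 (up to 0.40 with another library left out), and *Lgals3* to 0.071 under *Krt5* and *Krt14* scaling. *Klf4* went to 0.13 with library size only, 0.24 under *Krt5* and *Krt14* scaling, -0.093 to 0.0042 with 1 library left out (above 0 without ft/ftMyD88-/- replicate 2) and 0.052 without both replicates 2. The lens gene *Bfsp1* went to 0.0026 (DESeq2), 0.0080 (RLE), 0.17 (library size only), 0.26 (*Krt5* and *Krt14*), 0.0061 (filterByExpr) and -0.11 to 0.077 with 1 library left out, and the sebaceous keratin *Krt79* to 0.0043 (DESeq2 and RLE), 0.17 (library size only), 0.27 (*Krt5* and *Krt14*), 0.0022 (filterByExpr) and -0.052 to 0.039 with 1 library left out. Depth limits *Muc16*, *Foxa3*, *Rax*, *Krt12* and *Krt74*, whose counts were within reach of the floor of 3 counts in some libraries.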

Other observations

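Genes of the glands and follicles around the eye are given here as values. *Lpo*, lactoperoxidase of tear and milk secretions, was at 1.46, 2.44, 0.725 and 0.690 CPM in ft/ft and at 7.06, 4.96, 4.73 and 13.2 CPM in ft/ftMyD88-/-, with no overlap (log2 fold change 2.45, SE 0.483, adjusted p = 0.00764, edgeR). The water channel *Aqp5* fell by 0.71 on the log2 scale (adjusted p = 0.00635, edgeR), and these were the called genes among 5 lacrimal gland genes tested. The photoreceptor gene *Sag* was at no more than 2.19 CPM in any library and fell by 2.54 on the log2 scale (adjusted p = 0.000806, edgeR). *Krt15*, a keratin of the hair follicle bulge, fell from 4354 to 5866 CPM in ft/ft to 1616 to 2408 CPM in ft/ftMyD88-/- (log2 fold change -1.36, SE 0.147, adjusted p = 0.00013, edgeR), and of the 7 bulge genes 3 were lower and 1 was higher (*Lhx2*, 0.38). *Scd3*, a desaturase of sebaceous lipid synthesis, fell by 1.06 on the log2 scale (adjusted p = 0.00133, edgeR). Of 4 stress keratins none was called by edgeR, although *Krt16*, named after its values were seen, stood at 67.2, 253, 46.9 and 49.9 CPM in ft/ft and at 357, 702, 370.3 and 1074 CPM in ft/ftMyD88-/-, without overlap (log2 fold change 2.58, adjusted p = 0.053, edgeR).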
